A study of Drosophila melanogaster with 9 samples.

Results

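Chromatin accessibility at gene promoters was compared between cultured ovarian somatic cells lacking l(3)mbt (Δl(3)mbt OSCs, 2 libraries) and whole ovaries of Drosophila melanogaster (5 libraries), to find which promoters that are open in the ovary stay closed in the knockout cells and which are open in both. A promoter was an annotated transcription start site (TSS), or several of 1 gene lying within 300 bp of each other, and 21713 promoters of 17796 genes were examined. In each library it counted as open if the summit of 1 of the 16588 strongest peaks lay no more than 0.5 kb from a TSS. Of the 21713 promoters, 6730 were open in all 7 libraries (shared), 592 were open in all 5 ovary libraries and in neither knockout library (ovary-only), and 540 were open in both knockout libraries and in no ovary library (KO-only). These classes come from the comparison itself, so their sizes are counts of what was observed and no test was attached to them. Expressed as shares of all promoters, 31.0% were shared, 2.73% ovary-only and 2.49% KO-only, and these shares are the background for every count of genes given below.

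The series holds 9 ATAC-seq libraries of 4 groups, an assay in which a transposase cuts and tags DNA that nucleosomes do not cover. The knockout cells carry the l3mbt knockout genotype in the OSC line, a culture of ovarian somatic cells, and 2 libraries of the unmodified line (wild-type OSCs) are given beside the comparison as a description. Of the ovary libraries 2, of 6 ovaries each, came from w1118 flies. The other 3, of 6, 10 and 30 ovaries in the order numbered here, came from flies of genotype w[*]; TI{TI}vas[AID:EGFP], called vas-GFP here, in which the vas gene carries a degron and an EGFP tag. The labels name no l(3)mbt allele in either strain, and the flies had been fed with yeast. Ovaries were lysed whole, so their libraries mix germ cells, follicle cells and the muscle sheath, and fewer cells of a type cannot be told apart from weaker accessibility per cell. Whether the 2 knockout libraries came from separate cultures, and whether the knockout line is 1 clone, is not given in the sources used here, so the spread between libraries may be technical, and p-values measure only that spread.

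l(3)mbt encodes a chromatin protein with malignant brain tumour repeats that holds germline genes silent in somatic tissues, and OSCs are derived from the somatic cells of the ovary. The germline of the ovary uses a piRNA pathway of its own against transposons, in which the Argonaute proteins Aub and AGO3 amplify piRNAs in the ping-pong cycle and Rhino with its partners directs transcription of dual-strand piRNA clusters. Follicle cells, the somatic layer around each egg chamber, use a simpler pathway built on Piwi, and in late oogenesis they secrete the eggshell.

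The promoters on which the comparison turns are shown first. Each sequence runs 5′ to 3′ on the strand of its gene, from 150 bases before the TSS to 50 bases from it on, on the dm6 genome. Capitals mark CNGTTA on either strand, a loose form of CCGTTA, the motif that the study gives for the transcription factor Ovo. The first 3 are ovary-only promoters of ping-pong genes, the next pair are neighbouring starts of ovo, Vm34Ca is an ovary-only eggshell gene and klg a KO-only gene.
aub (chr2L:11001427-11001626, minus strand): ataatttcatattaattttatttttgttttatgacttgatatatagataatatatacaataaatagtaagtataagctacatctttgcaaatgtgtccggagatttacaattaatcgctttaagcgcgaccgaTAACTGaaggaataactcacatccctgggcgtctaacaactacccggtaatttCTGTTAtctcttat
AGO3 (chr3L:23554443-23554642, plus strand): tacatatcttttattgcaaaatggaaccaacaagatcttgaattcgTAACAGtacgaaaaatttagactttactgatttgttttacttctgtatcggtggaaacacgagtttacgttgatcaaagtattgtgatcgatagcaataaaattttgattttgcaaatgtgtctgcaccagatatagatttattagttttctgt
qin (chr3R:18590877-18591076, plus strand): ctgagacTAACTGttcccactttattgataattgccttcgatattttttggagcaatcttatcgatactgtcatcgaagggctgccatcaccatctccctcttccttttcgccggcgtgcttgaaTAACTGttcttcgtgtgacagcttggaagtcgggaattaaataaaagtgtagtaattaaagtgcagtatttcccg
ovo (chrX:5063694-5063893, plus strand): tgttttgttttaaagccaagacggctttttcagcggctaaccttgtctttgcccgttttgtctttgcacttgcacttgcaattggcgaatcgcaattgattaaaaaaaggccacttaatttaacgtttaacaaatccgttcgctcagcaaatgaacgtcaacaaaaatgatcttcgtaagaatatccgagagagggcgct
ovo (chrX:5064083-5064282, plus strand): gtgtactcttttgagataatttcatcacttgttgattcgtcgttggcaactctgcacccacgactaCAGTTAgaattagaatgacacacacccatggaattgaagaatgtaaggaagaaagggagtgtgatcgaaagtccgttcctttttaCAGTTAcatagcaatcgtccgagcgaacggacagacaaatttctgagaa
Vm34Ca (chr2L:13411582-13411781, minus strand): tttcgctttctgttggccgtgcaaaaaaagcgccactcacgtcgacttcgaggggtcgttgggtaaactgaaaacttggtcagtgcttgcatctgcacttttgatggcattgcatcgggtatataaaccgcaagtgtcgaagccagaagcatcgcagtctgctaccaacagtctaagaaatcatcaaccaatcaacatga
klg (chr3R:22899134-22899333, plus strand): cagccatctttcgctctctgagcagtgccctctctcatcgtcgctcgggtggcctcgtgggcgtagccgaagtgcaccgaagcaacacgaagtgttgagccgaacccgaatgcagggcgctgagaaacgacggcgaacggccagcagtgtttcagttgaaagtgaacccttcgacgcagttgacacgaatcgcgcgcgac
CNGTTA occurred at 2 places in the printed window of aub, 1 of AGO3, 2 of qin and 2 of the downstream start of ovo, and at none in the upstream start of ovo, Vm34Ca or klg. The other ovary-only start of aub, at chr2L:11001108, is not shown and had none in its own window of the same size. A match of letters is a description and not a binding site.

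The libraries differed in the length of their peak lists, from 16588 to 24890 peaks in the ovaries against 36659 and 27067 in the knockout, which is why equal numbers were compared. The weakest peak used had a fold enrichment (pileup at the summit over the local background of the same library) of 2.41 and 2.97 in the knockout libraries and 2.26 to 4.49 in the ovary libraries. The third vas-GFP list, from 30 ovaries, was used to its end, down to a −log10 q-value of 1.32. With equal numbers of peaks, 9080 and 9370 promoters were open in the knockout libraries and 8679 to 9480 in the ovary libraries. The means, 9225 ± 205 (SD, n = 2) and 9163 ± 305 (SD, n = 5), differed by less than this spread (two-sided exact permutation test, p = 0.81; the smallest p that 21 assignments allow is 0.0476). The promoter of l(3)mbt itself, which does not check the knockout, was open in all 9 libraries.

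Most promoters open in the ovary were also open in Δl(3)mbt OSCs. Of 7612 promoters open in all 5 ovary libraries, 6730 (88.4%) were open in both knockout libraries, 290 (3.81%) in one and 592 (7.78%) in neither. In the other direction, 77.6% of the 8671 promoters open in both knockout libraries were open in every ovary library and 6.23% in none. The Jaccard index of open promoters (shared over total) was 0.887 between the knockout libraries, 0.8 to 0.911 between ovary libraries and 0.696 to 0.78 between a knockout and an ovary library. Every knockout-ovary pair thus had a lower index than the knockout pair and any pair of ovary libraries. With a wild-type OSC library the index was 0.738 to 0.9 for knockout and 0.655 to 0.787 for ovary libraries. Both of these ranges overlapped the knockout-ovary range.

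**Figure D1:**
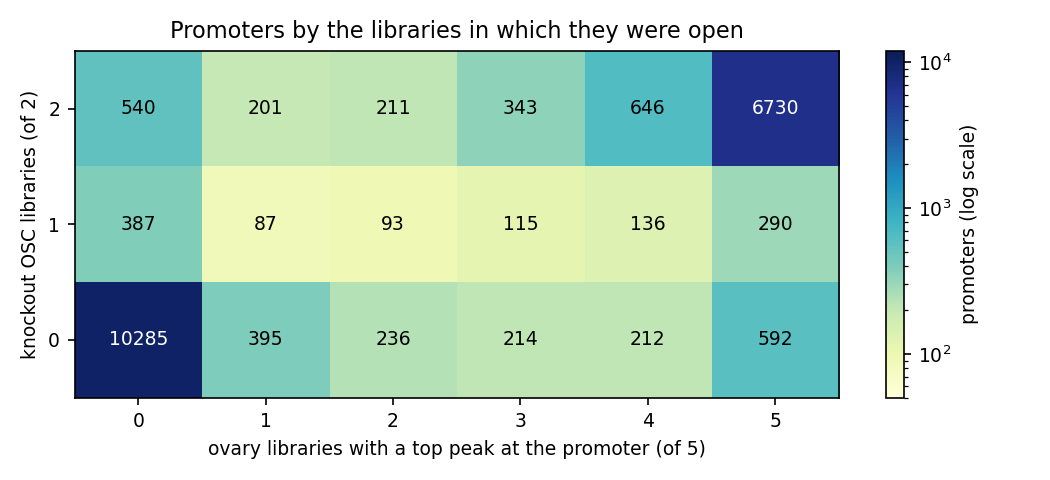
Number of promoters by how many of the 5 ovary libraries (horizontal axis) and of the 2 knockout OSC libraries (vertical axis) had a top peak within 0.5 kb, with the count in each cell and colour on a log scale. The corners hold 10285 promoters closed in all 7 libraries, 592 ovary-only, 540 KO-only and 6730 shared, and the cells between them hold the 3566 mixed promoters.

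Away from promoters the agreement was lower. Of the knockout peaks with a summit near a TSS, 66.6% and 63.5% overlapped a peak of every ovary library, against 26.3% and 29.8% of the peaks elsewhere. Ovary peaks at promoters overlapped a peak of both knockout libraries in 73.4% to 77.1% of cases, against 33.7% to 36.4% elsewhere. At shared promoters the summits also fell at nearly the same base, with a median distance of 8 to 11 bp between a knockout and an ovary library, beside 6 bp between the knockout libraries and 4 to 9 bp between ovary libraries.

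Among the 13 germline piRNA pathway genes that the study names, the promoters of aub, AGO3 and qin were closed in the knockout cells. Of the 15 promoters of these genes, 4 were ovary-only, 4 shared, none KO-only, 3 closed everywhere and 4 mixed, where ovary-only promoters were 2.73% of all promoters. Between 8 and 12 of the 15 were open in each ovary library, against 6 in each knockout library and 4 and 6 in the wild-type OSC libraries. Each knockout library therefore lay below each ovary library and no lower than the wild-type cells.

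aub, the Argonaute that receives piRNAs from AGO3, had a peak with fold enrichment 7.55 and 5.63 in the w1118 libraries and 4.56, 6.67 and 6.39 in the vas-GFP libraries, counted for both of its TSSs, which lie close together. No top peak was there in either knockout or either wild-type OSC library. The whole knockout lists held weak peaks within 1 kb, with fold enrichment 2.22 and 2.18. AGO3, its ping-pong partner, reached 8.47, 7.07, 6.41, 4.82 and 3.18 in the 5 ovary libraries in the same order, and no peak was called within 1 kb in the whole list of either knockout library. The downstream promoter of AGO3 was open in 1 w1118 library only.

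qin, a Tudor-domain protein of the ping-pong cycle, had ovary values of 6.51, 5.59, 4.53, 4.82 and 4.89 and no top peak in the knockout, but 1 of the wild-type OSC libraries had one at 5.01. All of these are weak members. Their ranks in the ovary libraries, where rank 1 is the strongest peak, ran from 7601 to 16125 of 16588, so that with the 10000 top peaks per library none of the 4 promoters was ovary-only. With every deposited peak, AGO3 and one aub promoter stayed ovary-only and qin did not. rhi, which encodes the heterochromatin protein that marks dual-strand clusters, was open in both w1118 libraries and in the third vas-GFP library and in no OSC library, and so was not counted as ovary-only.

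Of the other 10 genes of the list, rhi, vas, BoYb and moon had no open promoter in the knockout and 6 were open in both knockout libraries. The promoters of cuff and del, which act with Rhino, of Nxf3 and of Boot, which serve export of piRNA precursors, were shared, and of these cuff, del and Nxf3 were also open in both wild-type OSC libraries. At cuff the summit of the best peak lay near the edge of the window in every library, at positions from -408 to -457. When summits had to lie within 0.2 kb, cuff and Nxf3 were mixed, while del and Boot stayed shared. Peak height, compared below over all shared promoters, was higher in the knockout at del (normalised log2 difference -0.82, SE 0.21, limma adjusted p = 0.0203) and at Boot (-0.81, SE 0.14, limma adjusted p = 0.00272), both short of a 2-fold difference, while cuff (0.27) and Nxf3 (-0.04) did not pass. krimp was open in both knockout, both wild-type OSC and 3 ovary libraries. tej, a Tudor-domain nuage protein, was open in both knockout libraries (fold enrichment 3.3 and 4.6), in 1 w1118 library (5.34) and in no wild-type OSC library. The promoters of vas, BoYb and moon were called open in none of the 7 libraries. vas, the DEAD-box helicase of nuage, was shared once summits up to 1 kb from the TSS counted, and the strongest peaks within that distance in the whole knockout lists reached 5.69 and 7.1.

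ovo, which encodes the zinc finger factor that acts in the female germline, was open on both sides. At its TSS at chrX:5064233 fold enrichment was 3.33 and 5.16 in the knockout libraries, 11.9 and 9.9 in w1118 and 7.48, 8.27 and 5.39 in vas-GFP ovaries, and neither wild-type OSC library had a top peak. Every ovary value lay above both knockout values, though after quantile normalisation of all libraries the difference was 0.48 on the log2 scale (SE 0.17, limma adjusted p = 0.0716). The start at chrX:5063844 was open in all 9 libraries, with 5.21 and 7.8 in the knockout and 3.42 and 5.64 in the wild-type OSCs. In the knockout these were separate peaks, with summits at positions -71 and -78 from the downstream start and at -215 and -213 from the upstream one, whereas the wild-type OSC libraries had only the latter, at -212 and -223. In both w1118 libraries and in the second vas-GFP library a single peak counted for both starts. The third promoter of ovo, at chrX:5048273, was open only in 2 vas-GFP libraries.

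**Figure D2:**
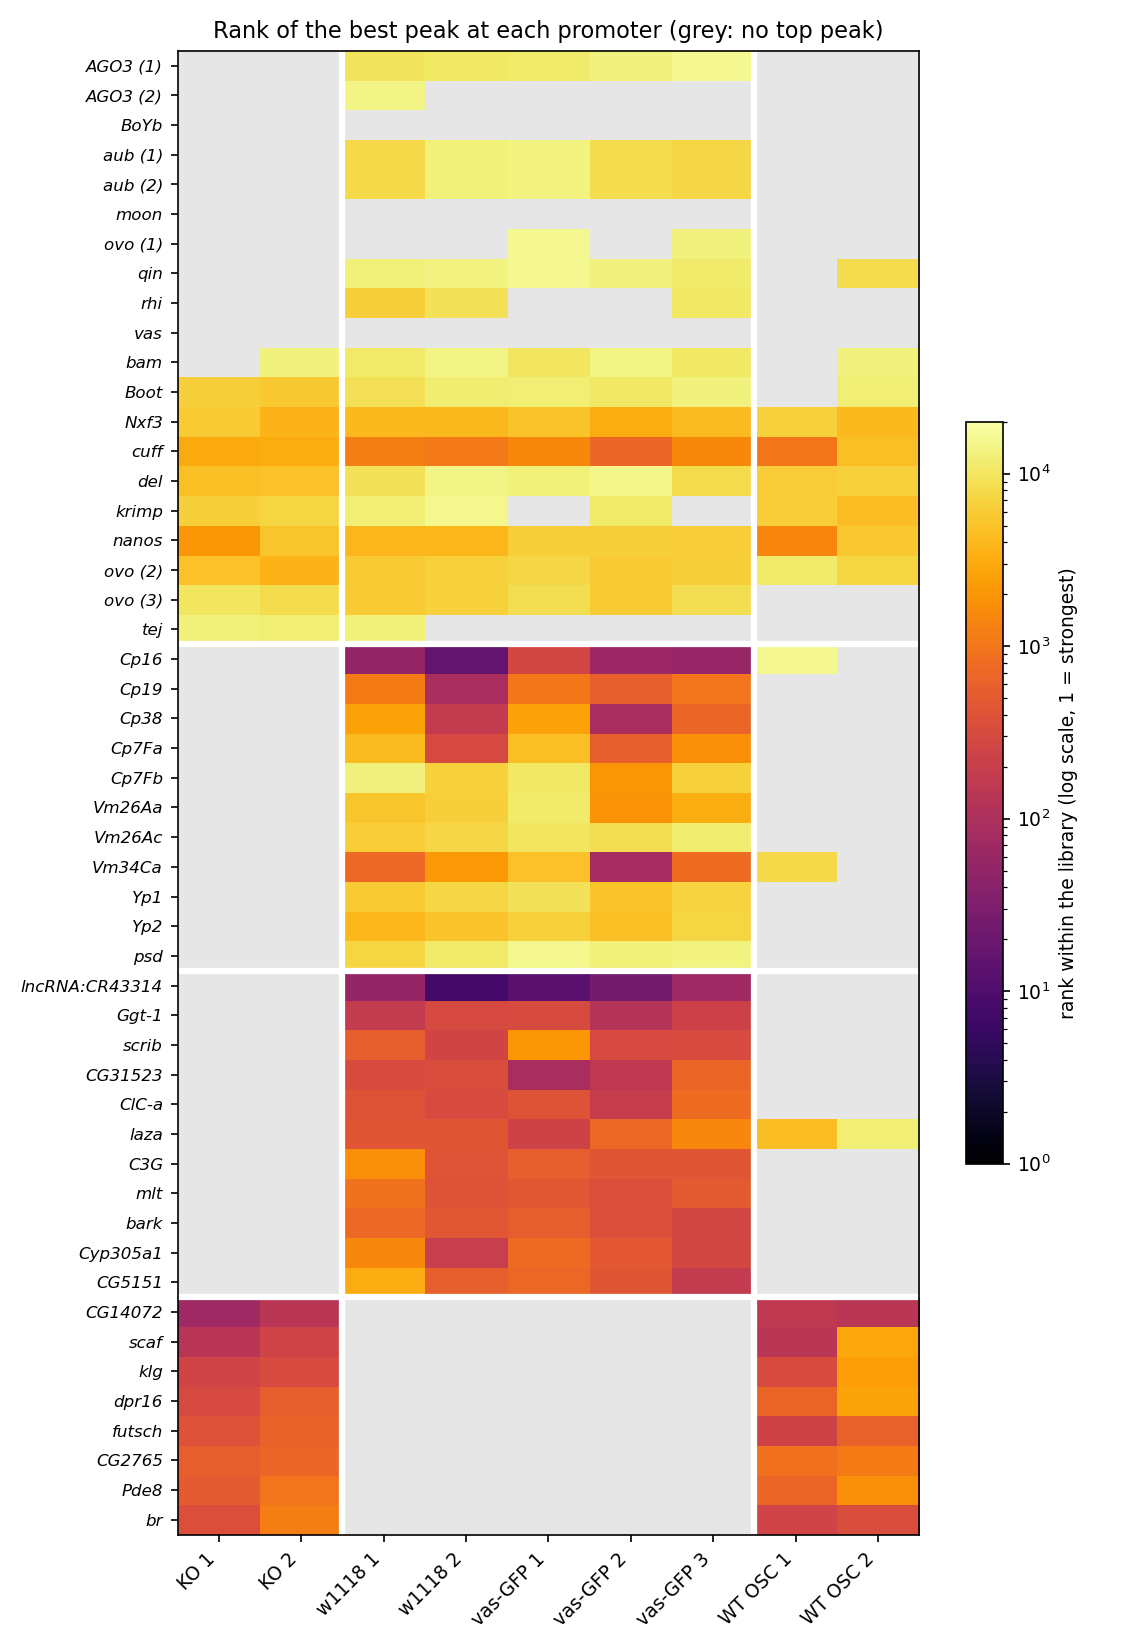
Rank of the best peak at each named promoter (rows) in each library (columns), on a log colour scale from 1 for the strongest peak, with grey for no top peak; numbers after a gene count its promoters in genome order. From top to bottom the blocks hold germline piRNA genes with ovo, nanos and bam, ovary-only eggshell and yolk genes, the leading ovary-only promoters and the leading KO-only promoters, and all 8 KO-only leads were also open in both wild-type OSC libraries.

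Other germline genes were mostly open in the knockout cells. Of 34 promoters of 19 germline development genes, 17 were shared, 2 ovary-only (Oxp, which lies beside rhi, and stet, a rhomboid-like protein), 1 KO-only and 10 mixed. nanos, a translational repressor of germline stem cells, was shared, but ovary-only when summits had to lie within 0.2 kb. bam, which drives differentiation of the cystoblast, had values of 5.57 and 4.42 in w1118 and 6, 4.02 and 4.55 in vas-GFP ovaries, and 3.55 in the 1 knockout library where it was open. Oxp reached 9.61 and 6.74 in w1118 and 4.69, 5.71 and 5.13 in vas-GFP ovaries, and stet 12.9 and 10.5 in w1118 and 8.28, 10 and 8.55 in vas-GFP ovaries. Neither had a top peak in the knockout. The KO-only member was bgcn, the partner of bam, with fold enrichment 2.72 and 3.67 in the knockout libraries and no top peak in the ovary or wild-type OSC libraries. At ranks 12560 and 12247 it was a weak peak, and it fell outside the 10000 top peaks.

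Of 21 promoters of oocyte and maternal genes, 10 were shared, 2 ovary-only and 1 KO-only. The ovary-only members were trk, which encodes the ligand of the Torso receptor, with values from 4.88 to 7.76, and mtrm, an inhibitor of Polo in the oocyte, with 7.19 to 13.2. The KO-only member was cona, a synaptonemal complex protein, at 3.56 and 4.38. Genes of the piRNA pathway that germ cells and follicle cells both use were mostly shared (21 of 37 promoters, among them piwi, zuc and armi), as was fs(1)Yb, a factor of the somatic pathway. In that list Nbr, an exonuclease that trims small RNAs, was ovary-only with 6.17, 5.8, 4.92, 4.53 and 3.04 in the ovary libraries. The whole knockout lists held peaks of 2.32 and 4.13 within 1 kb of Nbr, the latter above the lowest ovary value. With every deposited peak Nbr was mixed, and with the 10000 top peaks it was closed in all 7 libraries. Of the promoters of mino, 1 was KO-only with 2.65 and 3.63 in the knockout.

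Eggshell and yolk genes were the group most often ovary-only. Of 22 promoters of 21 such genes, 11 were ovary-only (50%, against 2.73% of all promoters), 2 were shared and none KO-only. In the ovary libraries 18 to 21 of the 22 were open, against 4 and 3 in the knockout and 7 and 4 in the wild-type OSC libraries, so the groups did not overlap. The ovary-only members were the vitelline membrane genes Vm26Aa, Vm26Ac, Vm34Ca and psd, the chorion genes Cp7Fa, Cp7Fb, Cp38, Cp16 and Cp19, and the yolk protein genes Yp1 and Yp2. Vml and dec, which encode further eggshell proteins, were shared.

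The yolk protein genes, which follicle cells and the fat body transcribe, had values in the middle of this group, and Yp2 reached 7.78 and 7.5 in w1118 and 5.76, 6.59 and 5.56 in vas-GFP ovaries. Vm26Aa, with 5.17, 5.4, 4.21, 7.32 and 6.75, had no peak within 1 kb in the whole list of either knockout library. At each of these genes all 5 ovary libraries had a top peak and the knockout libraries none, as the definition of the class requires. Vm34Ca had fold enrichment 15.3 and 12.6 in w1118 and 9.26, 14.7 and 15.1 in vas-GFP ovaries. In the whole knockout lists the strongest peak within 1 kb reached 2.22 and 2.66. At 3 of the 5 chorion genes, Cp16, Cp19 and Cp38, the peaks ranked high while their fold enrichment stayed low. Cp16 ranked 53 and 16 in w1118 and 264, 63 and 57 in vas-GFP ovaries, with fold enrichment of only 3.73 to 4.62, Cp38 ranked 90 to 2624 with 3.66 to 4.89, and Cp19 ranked 90 to 1141 with 2.16 to 2.96. Cp7Fb did not rank as high, at 2015 to 13446 with 2.53 to 3.61, and Cp7Fa had higher fold enrichment, 5.14 to 8.23, at ranks of 306 to 4692. By comparison, Ggt-1 ranked 118 to 316 with fold enrichment of 15.5 to 18.8. Follicle cells amplify the DNA of the chorion clusters, and the local background that divides the pileup would include such copies. Copy number was not measured in these files and its part in the ranks was not tested. The count of 11 depended on the peaks used. With every deposited peak 4 of the 11 stayed ovary-only (Vm26Aa, Cp19, Cp38 and Yp2), while Cp16, Cp7Fb and Vm34Ca became shared and 4 mixed. Ranked by fold enrichment 6 stayed ovary-only, with the 10000 top peaks 7, and with summits within 0.2 kb 5. These genes lay in clusters: Cp7Fa, Cp7Fb and Cp38 fell with 2 promoters of CG33181 in 5 ovary-only loci within 50 kb on the X chromosome, and Vm26Ac, Vm26Aa and psd with Gal in 4 on 2L.

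Follicle cell genes outside the eggshell were divided. Of 36 promoters, 13 were shared, among them tj, Fas3 and eya, which mark follicle cells, 4 were ovary-only and 3 KO-only. slbo, the C/EBP factor of border cells, was ovary-only with fold enrichment 14.3 and 14.6 in w1118 and 11.8, 15.2 and 11.2 in vas-GFP ovaries; with summits up to 1 kb away it was shared. zfh1 had a shared promoter, which was among the strongest in the knockout (ranks 114 and 128, against 3704 to 8016 in the ovaries), and a downstream ovary-only promoter. The KO-only members were Wnt4, a secreted ligand, with fold enrichment 5.53 and 6.57, cas, a zinc finger factor, with 8.71 and 10.5, and 1 promoter of br.

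Markers of the other cells a dissected ovary can hold gave no ovary-only promoter. Ovary-only promoters were 2.73% of all promoters, a share at which lists this small would hold few or none. Of 25 promoters of muscle genes, 1 was shared and none ovary-only or KO-only, but the number open varied from 1 to 12 between the ovary libraries, with 12 in the third vas-GFP library, against 5 in each knockout library. Since that library enters every ovary-only call together with the other 4, its muscle peaks alone could make none. Of 13 hemocyte promoters 1 was shared and 1 was KO-only (srp, a GATA factor, at 3.46 and 3.51), and of 7 tracheal promoters 2 were KO-only (btl, an FGF receptor, at 4.85 and 6.05, and verm, a chitin deacetylase, at 4.44 and 7.58). With the 10000 top peaks, and with every deposited peak, srp was mixed while btl and verm stayed KO-only. All 12 promoters of odorant, taste and ionotropic receptor genes were closed in all 7 libraries. Testis genes gave 2 ovary-only promoters of 18 and 1 KO-only. The former were ProtA, a protamine, with 7.82 to 12.2 in the ovaries, and sa, with 6.38 to 10.6, and the latter was mia, with 3.95 and 4.17 in the knockout. When summits had to lie within 0.2 kb, ProtA and sa were closed in all 7 libraries, while mia stayed KO-only. Whether the ovary peaks at ProtA and sa belong to these starts was not tested.

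**Figure D3:**
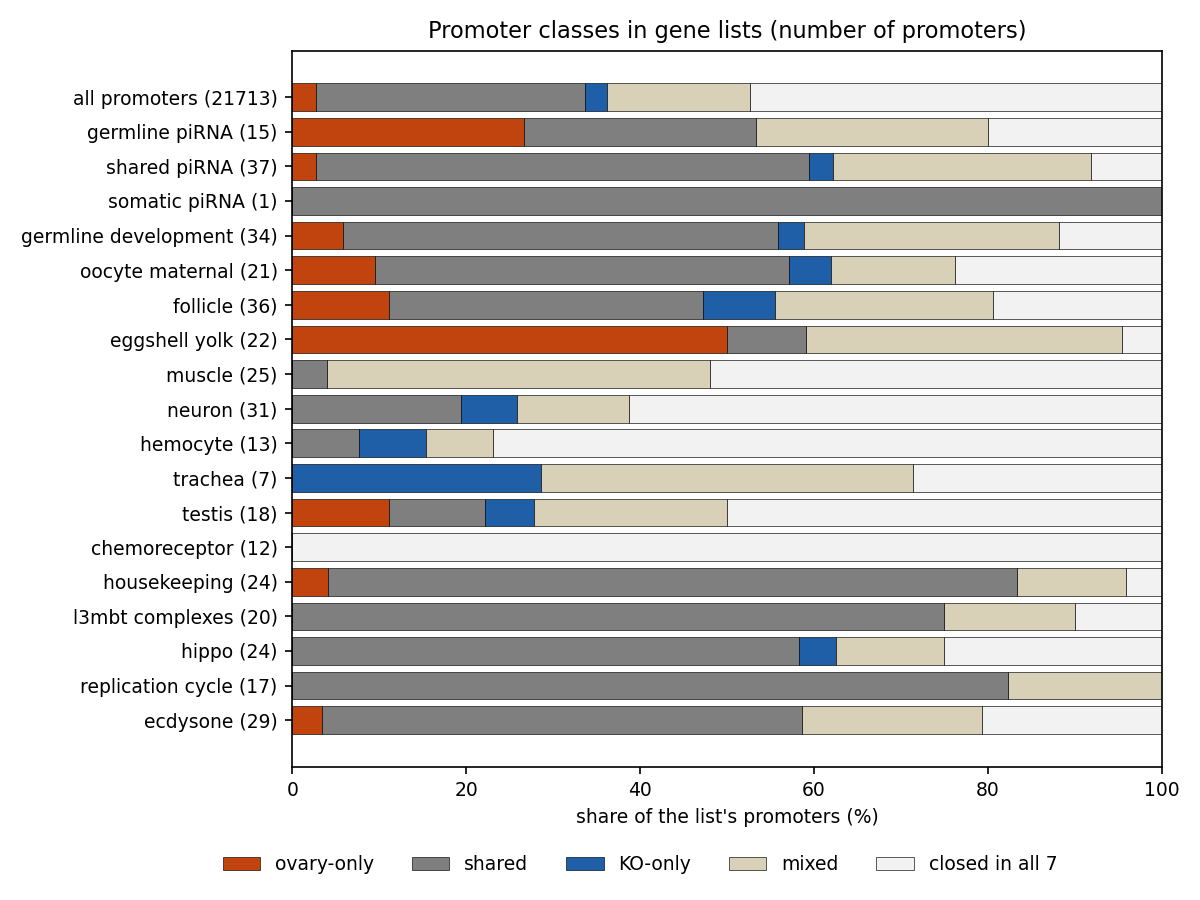
Share of promoters (horizontal axis, %) that were ovary-only, shared, KO-only, mixed or closed in all 7 libraries in each gene list, with the number of promoters in brackets and all 21713 promoters at the top. Ovary-only promoters make up 2.73% of all promoters, 11 of the 22 eggshell and yolk promoters and 4 of the 15 germline piRNA promoters. The replication (17) and l3mbt complex (20) lists hold none, and at the share over all promoters lists of this size would hold few or none.

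Genes that dividing cells need were open on both sides. Of 24 housekeeping promoters 19 were shared and 1, the third promoter of eEF1alpha1, was ovary-only. Replication and cell cycle genes had 14 of 17 promoters shared, and components of the repressor complexes that contain l(3)mbt 15 of 20, with no ovary-only or KO-only promoter in either list. Of all promoters 2.73% were ovary-only and 2.49% KO-only, shares at which lists of this size would hold few or none. In the Hippo list, which holds growth control genes, 14 of 24 were shared and fj, a Golgi kinase, was KO-only at 5.81 and 8.24. Ecdysone response genes had 16 of 29 shared, and Eip93F, a transcription factor induced by the hormone, had an ovary-only promoter at chr3R:21972379 with values from 14.3 to 17.5 in the ovaries.

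The strongest ovary-only promoters belonged to none of these lists except Cp16. The promoter of lncRNA:CR43314, a long non-coding RNA, led with ranks of 54, 8, 13, 25 and 70 and fold enrichment of 22.8 to 27.2 over the 5 ovary libraries. One knockout library had a peak of 2.12 there in its whole list. Ggt-1, a gamma-glutamyl transpeptidase, and mlt, with fold enrichment of 10.4 to 11.6, had no peak within 1 kb in the whole list of either knockout library. The other leading loci were scrib, which sets epithelial polarity (14.8 to 21.5), the chloride channel gene ClC-a (15.5 to 19.7), CG31523 (14.2 to 18.1), C3G, an activator of the GTPase Rap (10.1 to 12.7), Cyp305a1, a cytochrome P450 (13.4 to 20.3), CG5151 (10.3 to 18.8) and bark (16.5 to 21.4). For scrib, C3G, ClC-a, CG31523, Cyp305a1 and CG5151 the whole knockout lists held peaks of 1.86 to 2.82 within 1 kb. With every deposited peak, such weak peaks ended most of these calls: 2 of the 12 leads (Ggt-1 and mlt) stayed ovary-only, 7 became shared and 3 mixed. At bark the knockout peaks within 1 kb reached 5.66 and 6.56, and the promoter was shared once summits up to 1 kb counted. laza, a lipid phosphate phosphatase, was the only lead open in both wild-type OSC libraries (4.84 and 3.44).

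Further ovary-only promoters, chosen here after their values were seen, include both per and Clk of the circadian clock, at ranks 792 to 2781 and 1439 to 2992, hid, an activator of apoptosis, at 419 to 1582, hb, a gap gene whose mRNA is maternal, at 262 to 2280, and wisp, the poly(A) polymerase of the late oocyte, at 3989 to 7742. None of these had a top peak in any OSC library. tim, vri, Pdp1, cyc and cry, other genes of the clock, each had a shared promoter.

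The 592 ovary-only promoters belonged to 546 genes and to 517 loci, counting TSSs within 1 kb as 1 locus. They were weaker than shared promoters: their median rank in the ovary libraries was 5884 to 7878, against 3421 to 4539. For 456 of them (77%) no knockout top peak lay within 1 kb, and for 192 (32.4%) neither whole knockout list held a peak there. A further 153 had such a peak in one whole list and 247 in both, so most ovary-only promoters were closed at equal numbers of peaks and not devoid of signal. The 290 promoters open in all 5 ovary libraries and in 1 knockout library lay just outside the class.

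Part of the ovary-only class were alternative promoters. Of the ovary-only promoters 298 (50.3%) belonged to genes with several promoters, against 30% of all promoters, and 134 (22.6%) to genes that also had a shared promoter. In the KO-only class the same counts were 207 (38.3%, also above 30%) and 79 (14.6%). All promoters include those closed in every library, and the second share was not counted over them. In 15 genes an ovary-only and a KO-only promoter occurred together. br, which encodes the Broad-Complex transcription factors, was open at chrX:1612308 and chrX:1613657 in the ovaries and at chrX:1622308 in the knockout, where fold enrichment was 5.58 and 5.24. Pgk, of glycolysis, had both within 1676 bp: fold enrichment at its ovary-only start was 3.78 and 3.43 in w1118 and 3.27, 3.75 and 2.8 in vas-GFP ovaries, and at its KO-only start 1.91 and 2.25 in the knockout, at ranks of 16218 and 16027, close to the last peak used. In nebu the ovary-only promoter was strong, with 21.5 and 20 in w1118 and 16, 18.8 and 17.6 in vas-GFP ovaries, and the KO-only promoter, 10555 bp away, had 4.77 and 4.64 in the knockout. In hoe1 the ovary-only promoter had 13.9 to 15 in the ovaries and the KO-only one 5.39 and 6.43 in the knockout. In 11 of the 15 genes, these 3 among them, every ovary value at the ovary-only start was above both knockout values at the KO-only start, but fold enrichment ran lower in the knockout libraries as a whole. In CG6231, Sarm and asRNA:CR43481 the order was the reverse, as in CG6231 with 8.52 and 8.17 in the knockout against 3.86 to 4.67 in the ovaries, and in br the values overlapped. Pgk, nebu, hoe1 and CG6231 were picked out after their values were seen. The other 10 genes were bun, cana, CG2930, CG30015, esn, Sarm, stac, yin, zyd and asRNA:CR43481, of which yin and CG2930 were counted from the same peaks.

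By gene type, 23 of 290 tRNA promoters (7.93%) were ovary-only and 1 (0.345%) KO-only, with 189 shared. Protein-coding genes supplied 491 of the ovary-only and 449 of the KO-only promoters. In the 300 bp around each TSS (250 before, 50 after), the letters CAGGTA occurred on either strand in 12.7% of ovary-only promoters (13.2% with 1 promoter per locus), against 6.43% of all promoters, 5.65% of shared and 4.44% of KO-only promoters. GAGAG occurred in 48.5% of ovary-only and 41.7% of KO-only promoters, against 34.6% of shared and 32.4% of all. TATCGATA showed the opposite order, with 2.2% of ovary-only and 4.07% of KO-only, against 12.8% of shared and 6.69% of all promoters. Median GC content, which moves with such counts, was 43.7% in the ovary-only and KO-only classes, 38.7% in the shared class and 39.3% in all promoters, and its part in them was not tested. CNGTTA occurred in 37.5% of ovary-only, 42.6% of shared, 31.3% of KO-only and 37% of all promoters, and in 8 of the 15 germline piRNA promoters. CCGTTA occurred in 8.78%, 11%, 11.1% and 8.08% of the same classes, and in 2 of the 15 (Boot and tej).

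Most KO-only promoters were also open in wild-type OSCs. Of the 540, 313 were open in both wild-type OSC libraries, 151 in one and 76 in neither. For 432 of the 540 no ovary top peak lay within 1 kb, and for 259 no whole ovary list held a peak there. The 8 strongest loci were CG14072, scaf, klg, dpr16, futsch, CG2765, Pde8 and br, and each was open in both wild-type OSC libraries. klg, an immunoglobulin-type adhesion protein, had fold enrichment of 13.4 and 15.4 in the knockout and no top peak in any ovary library, and CG14072 had 12.3 and 14.2. futsch, a microtubule-associated protein of axons, had 7.26 and 8.15. Nrx-1, a synaptic adhesion protein, was KO-only with 6.3 and 7.86 and was closed in both wild-type OSC libraries, and of 31 promoters of neuronal genes these 2 were KO-only and none ovary-only. In families of neuronal adhesion proteins, counted after the calls were seen, 3 of 27 dpr promoters (dpr16, dpr17 and dpr19), 3 of 13 DIP promoters and 3 of 16 beat promoters were KO-only and none ovary-only. Over all promoters 2.49% were KO-only and 2.73% ovary-only, and at the latter share sets this small would hold few or none.

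How far the knockout cells had the promoters of the ovary was also read against the wild-type OSCs. Among promoters closed in both wild-type OSC libraries and open in all 5 ovary libraries, which also number 592, 45 (7.6%) were open in both knockout libraries, 76 in one and 471 (79.6%) in neither. Where the wild-type cells and all 5 ovary libraries were closed, 76 of 10057 promoters (0.756%) were open in both knockout libraries. Of 6196 promoters open in both wild-type OSC and all ovary libraries, 30 (0.484%) were closed in both knockout libraries. The 45 and the 30 lie closer together than their shares, which have unlike totals, 592 and 6196. Counted from the knockout side, the 592 ovary-only promoters held 30 open in both wild-type OSC libraries, 91 in 1 and 471 in neither. The wild-type libraries differed from each other more than the knockout libraries did, with 8279 and 9241 open promoters, and one of them supplied the longest list of the series. These shares were not tested.

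The 45 promoters that were shared but closed in wild-type OSCs include the downstream start of ovo, mael, a piRNA pathway factor, unc-13, which primes synaptic vesicles, CycJ, a cyclin of early development, Klp31E, Mmp1 and CG12177. Apart from ovo and CG12177 these were picked out after the calls were seen. mael had fold enrichment of 2.71 and 3.82 in the knockout, 6.71 and 5.67 in w1118 and 3.57, 6.29 and 4.29 in vas-GFP ovaries, so the groups overlapped. unc-13 had 6.66 and 8.02 in the knockout and 11.3 to 18 in the ovaries, without overlap before normalisation. CNGTTA occurred in 24 of the 45 (53.3%) and CCGTTA in 7 (15.6%), against 42.6% and 11% of all shared promoters and 37% and 8.08% of all promoters. The 45 lay at only 40 loci, and these differences in share were not tested. The 30 ovary-only promoters that were open in both wild-type OSC libraries include laza and, picked out after the calls were seen, Indy, sim, KCNQ, crc, dpn and Ubc4.

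**Figure D4:**
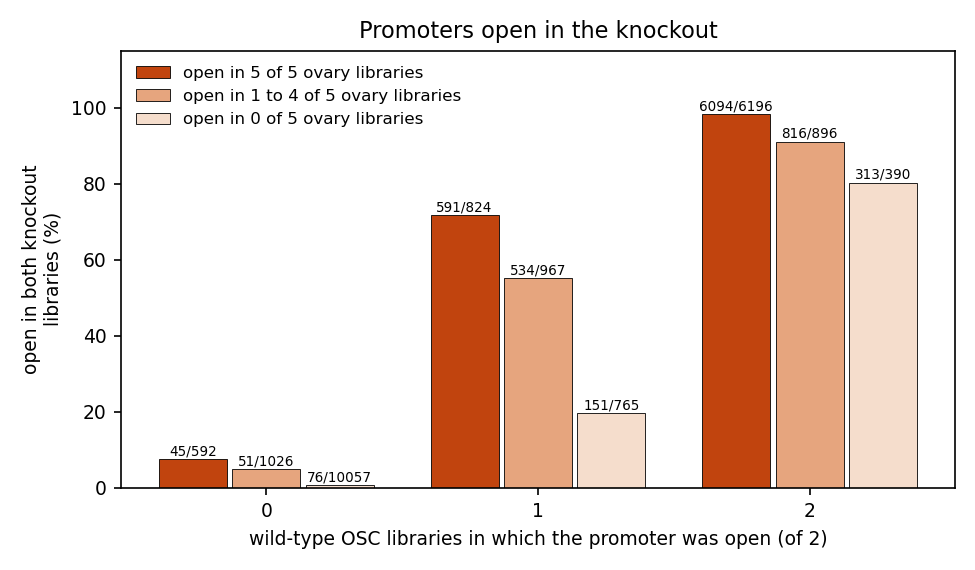
Share of promoters open in both knockout libraries (vertical axis, %) by the number of wild-type OSC libraries in which they were open (horizontal axis) and by the number of open ovary libraries (colours). With no wild-type library open, 7.6% of the promoters open in all 5 ovaries and 0.756% of those open in none were open in the knockout, and with both open 98.4% and 80.3%.

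At the 6730 shared promoters the height of the peak was compared, as the log2 of fold enrichment after quantile normalisation, since fold enrichment ran lower in the knockout libraries throughout (median over all peaks used 3.81 and 5, against 5.17 to 7.27). The median difference was 0.01, which the normalisation itself sets near 0. At an adjusted p-value of 0.05 and a difference of at least 1 on the log2 scale (limma, Benjamini-Hochberg over all 6730), 106 promoters (1.58%) at 83 loci were stronger in the ovaries and 117 (1.74%) at 93 loci in the knockout. These counts depended on the measure, with 712 and 571 when ranks replaced fold enrichment and 238 and 181 with every deposited peak, where the ovary side was the larger. Without the requirement on size, 1089 passed. The normalised values of the 7 libraries did not overlap between the groups at 2273 promoters, among them 221 of the 223 called.

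hng3 had the largest difference towards the ovaries. Its fold enrichment was 18 and 16.7 in w1118 and 14, 14.2 and 15.5 in vas-GFP ovaries, against 2.44 and 3.05 in the knockout, a normalised difference of 2.05 (SE 0.14, limma adjusted p = 3.35e-05). All ovary values were above both knockout values. CG12177, one of the promoters closed in wild-type OSCs, had 19.6, 18.8, 16.6, 17.6 and 20.3 in the ovaries and 3.98 and 3.87 in the knockout, a difference of 1.63 (SE 0.18, limma adjusted p = 2.61e-04), and so was open in the knockout at a much lower level. CG7148 (1.91), CG2004 (1.71), melt (1.59) and Rbp6, an RNA-binding protein (1.59), completed the 6 largest, but at CG7148 the difference was 0.42 when summits had to lie within 0.2 kb (limma adjusted p = 0.234).

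In the other direction CG6006 had fold enrichment of 10.8 and 13 in the knockout and 6.37, 4.85, 5.19, 6.33 and 3.86 in the ovaries, a normalised difference of -1.93 (SE 0.17, limma adjusted p = 1.00e-04). The knockout values were above all ovary values. lncRNA:CR43431 (-1.88), kirre, an immunoglobulin-type adhesion protein (-1.68), CG43845 (-1.60), the guidance ligand NetA (-1.59) and asRNA:CR44382 (-1.58) followed, each with normalised groups that did not overlap.

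Members of the gene lists that passed follow, where 1.58% of all shared promoters were stronger in the ovaries and 1.74% in the knockout. In the piRNA list common to germ and follicle cells, tapas, a Tudor-domain protein, was stronger in the ovaries at both of its shared promoters (1.10 and 1.31), which took most of their values from the same peaks and where fold enrichment was 16.1 to 21.7 in the ovaries and 4.47 to 6.14 in the knockout. No other of the 21 shared promoters of that list passed, nor any of the 4 of the germline piRNA list, whose median difference was -0.43. Eip93F was stronger in the ovaries at its shared promoter (1.39), beside its ovary-only one. Stronger in the knockout were 1 of the shared promoters of pnt, an ETS factor (-1.24), both of cpx, a synaptic protein (-1.24, from the same peaks), and 1 each of the nuclear receptor genes Eip75B (-1.01) and Hr3 (-1.27). The lists of germline development (17), oocyte (10), housekeeping (19), l3mbt complex (15), Hippo (14) and replication genes (14) had no shared promoter past the threshold. At the shares over all shared promoters, lists of this size would hold few or none, so this says little about these genes.

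**Figure D5:**
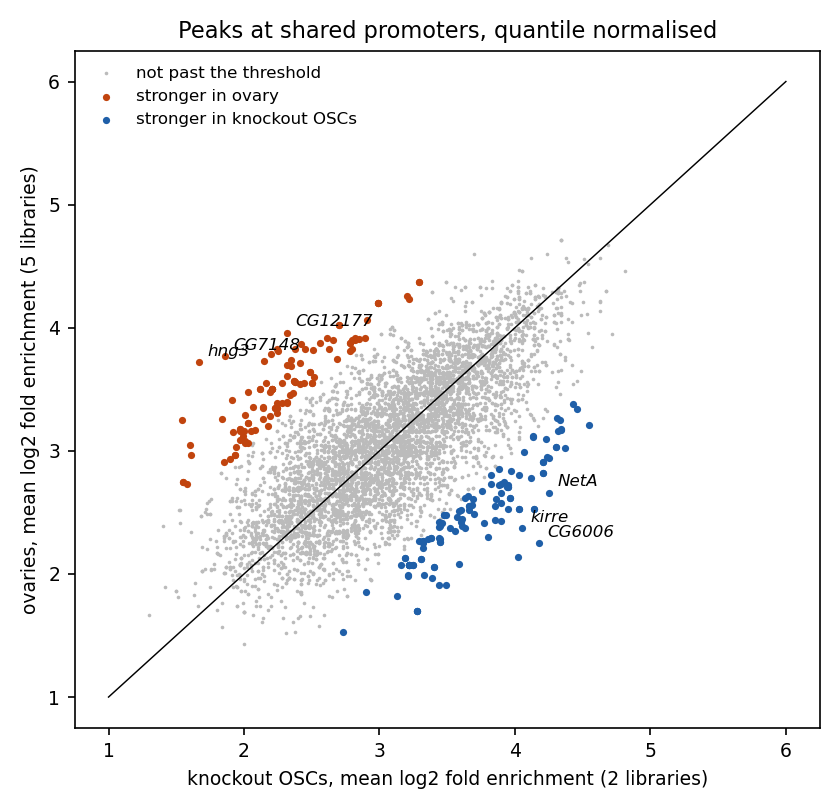
Mean quantile-normalised log2 fold enrichment at the 6730 shared promoters in the 2 knockout libraries (horizontal axis) and the 5 ovary libraries (vertical axis), with the line of equality. The 106 promoters stronger in the ovaries, led by hng3, lie above the cloud and the 117 stronger in the knockout OSCs, led by CG6006, below it.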

How the data were processed

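ATAC-seq libraries were analysed from the peak lists that the authors deposited, 1 per library. The authors' OSC libraries used 50000 cells and the omni-ATAC protocol, and tagmentation lasted 30 minutes by the labels; the study's methods say that for ovaries the time was varied up to 1 hour, and which ovary library had which time is not given in the sources used here. The authors' steps were trimming (cutadapt 1.18), alignment to dm6 (BWA mem), duplicate marking (Picard 2.9.0), filtering (SAMtools 1.9) and peak calling (MACS2 2.1.1.20160309, q-value limit 0.05, no control stated). The deposited lists give, for every summit, its fold enrichment (a ratio of pileup to local background) and p-value and q-value as −log10. Read totals are not in the lists, so sequencing depth behind a peak is unknown. The authors did not scale these values from library to library, and fold enrichment therefore moves with depth and signal-to-noise. Peak lists of merged replicates and the authors' table of regions that differ between knockout and wild-type OSCs (fold changes and FDR) were not used.

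Here the 16588 peaks with the highest −log10 q-value were kept in each library and assigned to TSSs of Ensembl release 115 on the same assembly, without its nameless records of mature miRNAs. Shared promoters were compared with limma 3.58.1 in R 4.3.3 on log2 fold enrichment of the strongest peak, with no pseudocount and the 5 ovary libraries as 1 group. Values per library were compared by exact permutation. Other steps used Python 3.11.15, pandas 2.3.3, NumPy 2.4.6 and SciPy 1.17.1, and open calls and the fit were checked on simulated data. The genes named are the germline piRNA genes of the study with ovo, nanos and bam, the 12 leading ovary-only and 8 leading KO-only loci, the 6 largest differences each way, and list members that were ovary-only or KO-only, with others marked as chosen after their values or calls were seen, or named as examples of a list or of a cluster. The promoters, lists and comparisons were chosen with earlier results of these data known. Sequences were read from the dm6 genome of RefSeq. The smallest p-values are limited by 2 knockout libraries.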

Additional observations from a re-analysis of the deposited data

Results flagged for a closer look

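In the 5 ovary libraries, 63 sets of fold enrichment at named promoters were searched for 1 library far from the other 4, and 5 were found, where chance gives about 1 in 20. At lncRNA:CR43314 the first w1118 library had 22.8, below 26 to 27.2 in the others. At scrib the first vas-GFP library had 14.8, below 19.8 to 21.5. The first w1118 library was also low at C3G, with 10.1 against 12.2 to 12.7. Ggt-1 was high in the second vas-GFP library, at 18.8 against 15.5 to 16.3. CG7148 was low in the third vas-GFP library, at 10.3 against 17.3 to 18.6.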

How the results depend on the processing

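The counts of ovary-only (429 to 870), shared (4807 to 7899) and KO-only promoters (432 to 753) stayed within 1.5 times of those given under all 17 alternatives each, and without 1 library they ran from 612 to 779, 6769 to 7171 and 553 to 743. Which promoters they held varied more: of the 592 ovary-only promoters 300 (50.7%) were ovary-only with the 10000 top peaks and 300 with every deposited peak, 484 (81.8%) with summits within 1 kb and 504 (85.1%) ranked by fold enrichment. Of the 540 KO-only promoters 234 (43.3%) were KO-only with the 10000 top peaks and 334 (61.9%) with every deposited peak. With summits within 1 kb 443 (82%) were, and ranked by fold enrichment 423 (78.3%). The difference in open promoters per library, ovary minus knockout, was -62 and turned to 83 without knockout replicate 2 and 59 without vas-GFP replicate 3 (range -207 to 83 without 1 library). The share of top peaks at promoters, 63.2 ± 1.93% (n = 5) against 63.55 ± 4.6% (n = 2), differed by -0.35 points (two-sided exact permutation test, p = 0.952) and turned to 2.9 without knockout replicate 2 and 0.075 without vas-GFP replicate 1 (range -3.6 to 2.9). Median peak width, ovary minus knockout, was -40.6 bp (same exact test, p = 0.0952; range -52.6 to -28.6). Shared promoters stronger in the ovaries and in the knockout, 106 and 117, became 712 and 571 with ranks in place of fold enrichment, 172 and 193 with a peak in at least 1 knockout and 3 ovary libraries, 238 and 181 with every deposited peak and 70 and 68 with summits within 0.2 kb. Without 1 library they ran from 103 to 163, the highest without knockout replicate 2, and from 109 to 157. CG7148 fell to 0.42 with summits within 0.2 kb (limma adjusted p = 0.234), and the other 11 named differences kept their direction and side of the threshold wherever they could be fitted. The cause of these changes was not tested. Leaving out libraries for the share and the width, and the crossed pairing, were added after the data were seen.

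The replicate numbers of the knockout and w1118 titles do not pair samples by design, and deviations of same-numbered libraries had a correlation of -0.18 over 6730 shared promoters. With the replicate number as a block on these 4 libraries, 88 promoters were stronger in the ovaries and 156 in the knockout, the same as without the block on the same libraries, and the crossed block gave 87 and 156.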

Other observations

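Of the 6730 shared promoters, 1 differed in peak height between vas-GFP and w1118 ovaries past the thresholds used above (limma on the normalised values, 3 against 2 libraries). With so few libraries, and only promoters open in every library, this cannot show that the strains are alike. The vas-GFP libraries also differ in the number of ovaries, so strain and preparation cannot be told apart. Loci of the KO-only class lay in groups of 3 within 50 kb at several places, among them Nplp1, gsb-n and gsb on 2R and Grx5, CG9521 and CG9518 on the X chromosome. The ovary-only class had 4 loci within 50 kb at GILT3, GILT2, asRNA:CR44052 and CG10301 on 3R and 3 at alpha-Est8, alpha-Est5 and alpha-Est1 on the same arm. These groupings were noticed in the calls and were not tested.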
